A study of Mus musculus with 7 samples.

Results

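Cadherins are calcium-dependent adhesion receptors that hold neighbouring cells together, and their genes were compared between the Nestin-positive and Nestin-negative fractions of Ptch1-deficient granule neuron precursors, the dividing cells that produce the granule neurons of the cerebellum. The members are the genes that the array's annotation names Cdh followed by a number (Cdh5 left out) or Pcdh followed by a number or letter. Celsr1 to Celsr3, Fat1 to Fat4 and the catenin genes Ctnna1, Ctnna2 and Ctnnd2 were added. They come to 65 genes with 115 probe sets that name 1 gene, among 18193 genes with such a probe set. A further 6 probe sets name several alpha-cluster protocadherins at once and were not used here.

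Cells were taken from mice carrying Math1-Cre, a Ptch1 gene flanked by loxP sites and a Nestin-CFP reporter, and both fractions share this genotype. Math1-Cre acts in cells that have switched on Math1 (Atoh1), which in the cerebellum marks the granule neuron lineage, and the loss of Ptch1 there releases the Hedgehog pathway. Cells came straight from the cerebellum without culture or treatment and were separated by flow cytometry, and the labels do not name the signal behind the gate. Each of 4 Nestin-positive samples (replicates 1, 3, 4 and 5) and 3 Nestin-negative samples (replicates 1, 4 and 5) was measured on 1 Affymetrix Mouse Genome 430 2.0 array. The sample labels give postnatal day 7 and medulloblastoma as the tissue type, whereas the series' design text gives postnatal day 4. The values are intensities from MAS5, which subtracts the signal of mismatched control probes, scaled by the authors to the same trimmed mean on each array.

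Nes, the gene of the protein that names the fractions, had a signal of 478 to 829 on Nestin-positive arrays and 174 to 217 on Nestin-negative arrays, which checks the labels. Of 13 granule neuron precursor markers on the array, 12 reached the array median on at least 1 array, with Meis2 below it on all. The summed signal of the 13 overlapped between the fractions (81399 to 97202 in Nestin-positive and 90136 to 91375 in Nestin-negative cells). Such a sum rests mostly on its brightest genes, here Zic1 and Ccnd2 among others, and tests of single markers are given further below. Markers of other cell types were also present. The summed signal of 12 microglia and macrophage markers was 373 to 1251 in Nestin-positive and 2238 to 8232 in Nestin-negative cells, and that of 9 meningeal fibroblast markers was 4087 to 6166 and 5503 to 12401. Among the 7 arrays, Nestin-positive replicate 3, which has no Nestin-negative partner, was the brightest for 15 of the 41 members tested and the dimmest for 6. Nestin-negative replicate 1 was the brightest for 10 and the dimmest for 8. On Nestin-positive replicate 3 the summed signal of 12 astrocyte and Bergmann glia markers was 32354, of which Fabp7 gave 14175. The rest of the Nestin-positive arrays had 11543 to 17896, and Nestin-negative arrays 9042 to 23914.

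Classical cadherins bind the same kind of molecule on the next cell through their outermost repeat, and their tails hold beta-catenin and alpha-catenin, which tie the junction to actin. Protocadherins have more extracellular repeats and lack the catenin-binding tail, and the clustered ones, encoded side by side, give each neuron a combinatorial surface identity. Celsr and Fat proteins are very large atypical cadherins that carry planar polarity signals from cell to cell. In the young cerebellum, N-cadherin (Cdh2) joins precursors in the external granule layer, and Fat2 is found on granule cells and their parallel fibres.

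A probe set was tested if its signal reached the array median (64.4 to 94.5 over the arrays) on at least 3 arrays, regardless of fraction, and the brightest such probe set stood for its gene. By this rule 41 of the 65 members were tested. The other 24 are Cdh1, Cdh3, Cdh6, Cdh9, Cdh16 to Cdh19, Cdh23, Cdh26, Pcdh1, Pcdh12 and 12 of the 22 Pcdhb genes. For 22 of these 24 every probe set lay below the array median on all 7 arrays. The exceptions were Pcdhb12 and Pcdhb15, which reached it on 1 and 2 arrays. Cdh1, which encodes the epithelial E-cadherin, had signals of only 5.74 to 22.9. These are dim signals and not proof of absent transcripts, since a poorly binding probe set looks the same.

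**Figure D1:**
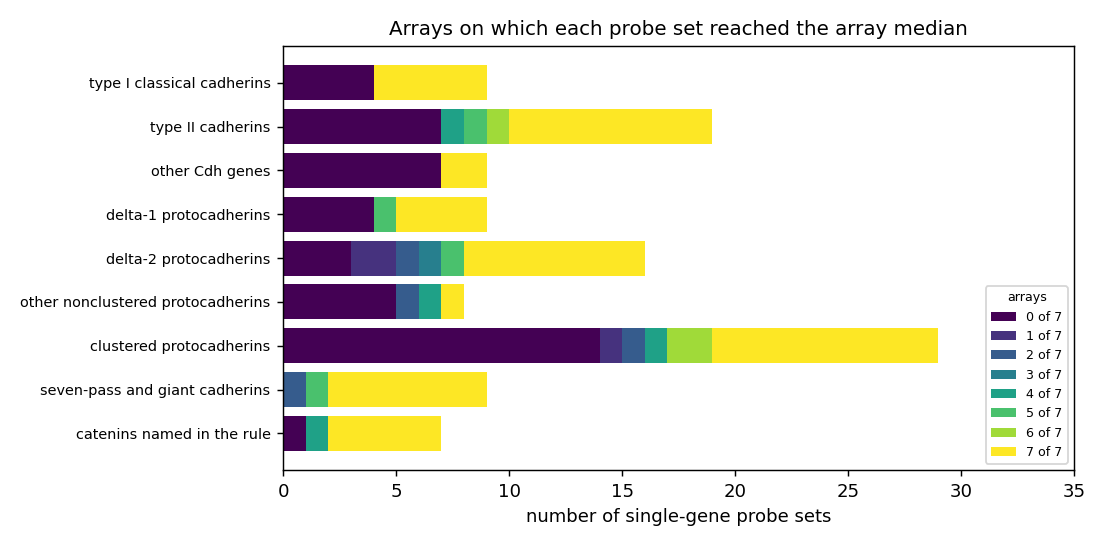
Number of single-gene probe sets (x axis) in each group of member genes (y axis), coloured by the number of the 7 arrays on which the signal reached the array median. All 7 arrays were reached by 7 of the 9 probe sets for Celsr and Fat genes, and by 10 of the 29 for clustered protocadherins.

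The cadherin family genes past a test with paired samples were a polarity receptor, a giant cadherin, 4 nonclustered protocadherins and the type II cadherin Cdh20. Of the 41 tested members, 21 had positive and 20 negative log2 changes (Nestin-positive minus Nestin-negative), with a median of 0.00, against -0.03 over all 11089 genes tested. The log2 change lay within 0.5 of 0 for 35 of them and exceeded 1 in size for 3, Celsr1, Fat2 and Pcdh8. In the limma fit of all 7 arrays 0 members passed an adjusted p of 0.05 (8 had an unadjusted p under 0.05, or 19.5%), where 0.748% of all genes passed and 14.4% had an unadjusted p under 0.05. The smallest adjusted p of a member was 0.0536, for Pcdh8.

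Samples with the same replicate number varied together, so the number was also used as a block, that is, each Nestin-positive array was compared with the Nestin-negative array of its number. This fit uses the 3 pairs and drops Nestin-positive replicate 3. With it 7 members passed (17.1% of those tested, against 10.1% of all genes): Celsr1, Pcdh7, Pcdh18, Pcdh19 and Cdh20 rose, and Pcdh8 and Fat2 fell. Celsr1, Pcdh18, Pcdh8 and Fat2 also passed with each pair left out in turn. The errors of such a fit rest almost wholly on spread pooled over genes, so these passes say little about each gene's own spread. With all 3 pairs the count is 5 members higher, against 3.6% of all genes, and 2 lower, against 6.52%. The groups of 4 and 3 arrays did not overlap for 3 members on the higher and 3 on the lower side (14.6% of those tested, against 15% of all genes, of which 5.87% were higher and 9.11% lower). The pairing is inferred from the data, and the labels do not say that same-numbered samples share an animal or a day. Separate animals are not named either, so the p-values measure the spread between these samples, part of which may be technical. In sorted samples of this kind, fewer cells that express a gene and less of its RNA per cell cannot be told apart.

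**Figure D2:**
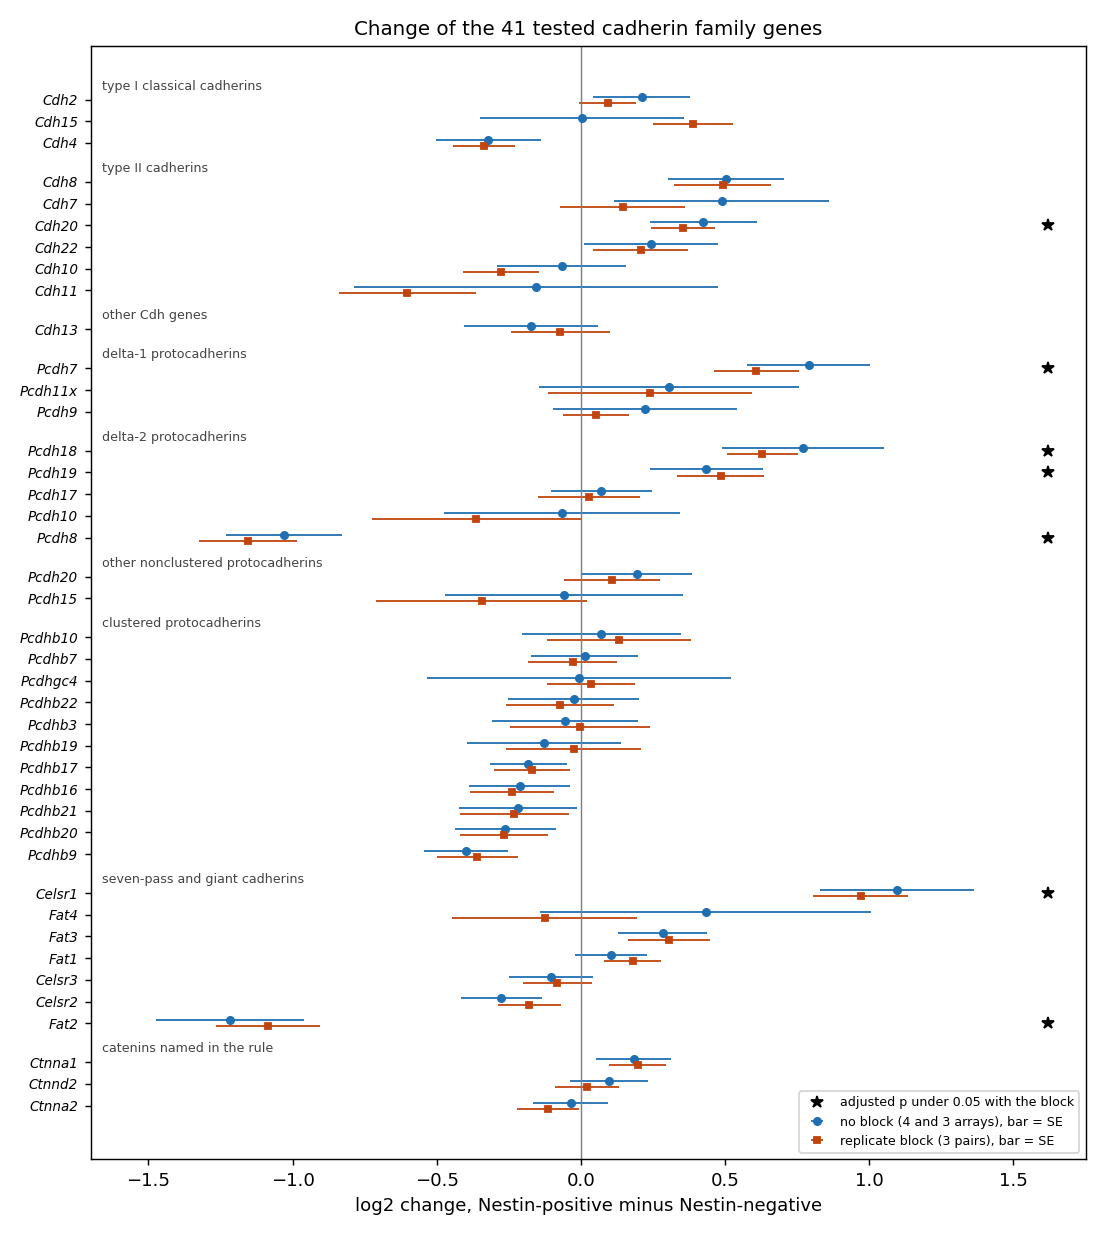
Log2 change (x axis, Nestin-positive minus Nestin-negative) of the 41 tested members (y axis, by group), from the fit of 4 and 3 arrays (blue circles) and the fit with the replicate block (orange squares), with standard errors as bars. Stars mark the 7 members with an adjusted p under 0.05 with the block, of which Celsr1 lies farthest to the right and Pcdh8 and Fat2 farthest to the left.

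Among the large atypical cadherins, Celsr1 was higher and Fat2 lower in Nestin-positive cells. Celsr1, a receptor of the planar polarity pathway in epithelia and neural progenitors, had a signal of 329, 600, 506 and 453 on Nestin-positive replicates 1, 3, 4 and 5 and of 152, 213 and 308 on Nestin-negative replicates 1, 4 and 5. The lowest Nestin-positive value lay just above the highest Nestin-negative one, and the Nestin-positive array was higher in each pair. The mean was 472 ± 113 (SD, n = 4) against 225 ± 78.6 (SD, n = 3). The log2 change was 1.10 ± 0.27 (SE; limma, adjusted p = 0.0979), which corresponds to 2.14-fold. With the block Celsr1 rose by 0.97 ± 0.17 on the log2 scale (limma, adjusted p = 0.00048).

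Fat2, a giant cadherin of granule cells, had a signal of 190, 136, 216 and 187 on Nestin-positive replicates 1, 3, 4 and 5. On Nestin-negative replicates 1, 4 and 5 it was 594, 423 and 291. The fractions did not overlap, but the Nestin-negative arrays spread widely and replicate 1 was the highest of them. The mean was 182 ± 33.3 (SD, n = 4) against 436 ± 152 (SD, n = 3), a log2 change of -1.22 ± 0.26 (SE; limma, adjusted p = 0.0692). With the block the change was -1.08 ± 0.18 (limma, adjusted p = 0.000372), and the pairs of replicates 1, 4 and 5 gave -1.64, -0.97 and -0.64.

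The closest relatives of these genes did not pass in either fit. Celsr2 averaged 2492 ± 386 (SD, n = 4) against 2996 ± 215 (SD, n = 3), with a log2 change of -0.28 ± 0.14 (95% interval -0.59 to 0.04). A dimmer kept Celsr2 probe set had a log2 change of -0.03. With the block that probe set had 0.11, against -0.18 for the brighter one. Celsr3, a relative of Celsr1 known for its part in axon tract formation, had a log2 change of -0.10 ± 0.15. Fat1 differed by 0.10 ± 0.13 and Fat3 by 0.28 ± 0.15, the latter with an adjusted p of 0.205 with the block (limma). Whether Celsr1 differs in its change from Celsr2 and Celsr3, or Fat2 from the other Fat genes, was not tested. Fat4, a receptor for the cadherin Dchs1, had a signal of 358 on Nestin-positive replicate 3 and of 44.1 to 111 on the other 6 arrays. Its log2 change was 0.43 ± 0.58 over all arrays and -0.13 without that array. The summed astrocyte and Bergmann glia signal was also highest on that array, but the markers differed. Fabp7, Slc1a2, Slc1a3, Gdf10 and Aldh1l1 were highest there, and Gfap, Aqp4, Gja1, Sox9, Hopx, S100b and Aldoc on other arrays.

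The nonclustered protocadherins gave changes in both directions. Pcdh8, a delta-2 protocadherin whose protein is taken up from the surface together with N-cadherin at synapses, had a signal of 151, 236, 208 and 149 on Nestin-positive replicates 1, 3, 4 and 5. On Nestin-negative replicates 1, 4 and 5 it was 360, 374 and 384. The Nestin-negative arrays were close together and all above the Nestin-positive ones. The mean was 186 ± 42.9 (SD, n = 4) against 373 ± 11.9 (SD, n = 3), a log2 change of -1.03 ± 0.20 (SE; limma, adjusted p = 0.0536). With the block it was -1.15 ± 0.17 (limma, adjusted p = 0.000113). A dimmer Pcdh8 probe set had a log2 change of -0.83.

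Pcdh7, a delta-1 protocadherin, had a signal of 549, 757, 405 and 430 on Nestin-positive replicates 1, 3, 4 and 5 and of 294, 299.8 and 306 on Nestin-negative replicates 1, 4 and 5. All Nestin-positive arrays were higher, with replicate 3 the highest and replicates 4 and 5 nearest to the Nestin-negative level. The log2 change was 0.79 ± 0.21 (SE; limma, adjusted p = 0.122), and with the block Pcdh7 rose by 0.61 ± 0.15 (limma, adjusted p = 0.00978). This call was lost without the pair of replicate 1 (adjusted p = 0.132). A dimmer kept probe set had a log2 change of 0.61, and its fractions overlapped (107 to 203 against 73.5 to 135). With each probe set tested alone, its blocked adjusted p was 0.297, against 0.0366 for the brighter one (limma).

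Pcdh18, a delta-2 protocadherin, had a signal of 969, 1436, 1354 and 698 on Nestin-positive replicates 1, 3, 4 and 5 and of 527, 914 and 513 on Nestin-negative replicates 1, 4 and 5. The fractions overlapped, because Nestin-negative replicate 4 exceeded Nestin-positive replicate 5, yet in each pair the Nestin-positive array was higher. The log2 change was 0.77 ± 0.28 (SE; limma, adjusted p = 0.245), and 0.63 ± 0.12 with the block (limma, adjusted p = 0.00168). Another probe set of Pcdh18 was higher by 0.75 on the log2 scale without overlap between the fractions.

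Pcdh19, the X-linked delta-2 protocadherin known as an epilepsy gene in humans, had a signal of 579, 369, 366 and 358 on Nestin-positive replicates 1, 3, 4 and 5. On Nestin-negative replicates 1, 4 and 5 it was 333, 275 and 303. The Nestin-positive arrays were all higher, and replicate 1 stood well above the others. Both other kept probe sets of Pcdh19 overlapped between the fractions, at 247 to 545 against 244 to 285 and at 79.0 to 187 against 66.7 to 97.9. With the block Pcdh19 rose by 0.48 ± 0.15 (limma, adjusted p = 0.0455; 0.351 without the block), a call that was lost without the pair of replicate 1 (0.445). Its log2 change over all 7 arrays was 0.43 ± 0.20, and 0.27 without Nestin-positive replicate 1.

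Other nonclustered protocadherins did not pass. Pcdh17 differed by 0.07 ± 0.18, Pcdh20 by 0.19 ± 0.19 and Pcdh11x by 0.30 ± 0.45. Pcdh10 was dimmer than the array median on 3 of 4 Nestin-positive arrays and 1 of 3 Nestin-negative arrays, so its log2 change of -0.06 ± 0.41 compares dim signals. Pcdh15 was also dim, with 2 of 4 and 1 of 3 arrays below the median. For Pcdh9, a delta-1 protocadherin, the brighter probe set changed by 0.22 ± 0.32 and a dimmer one by -0.18, and neither fit called it.

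**Figure D3:**
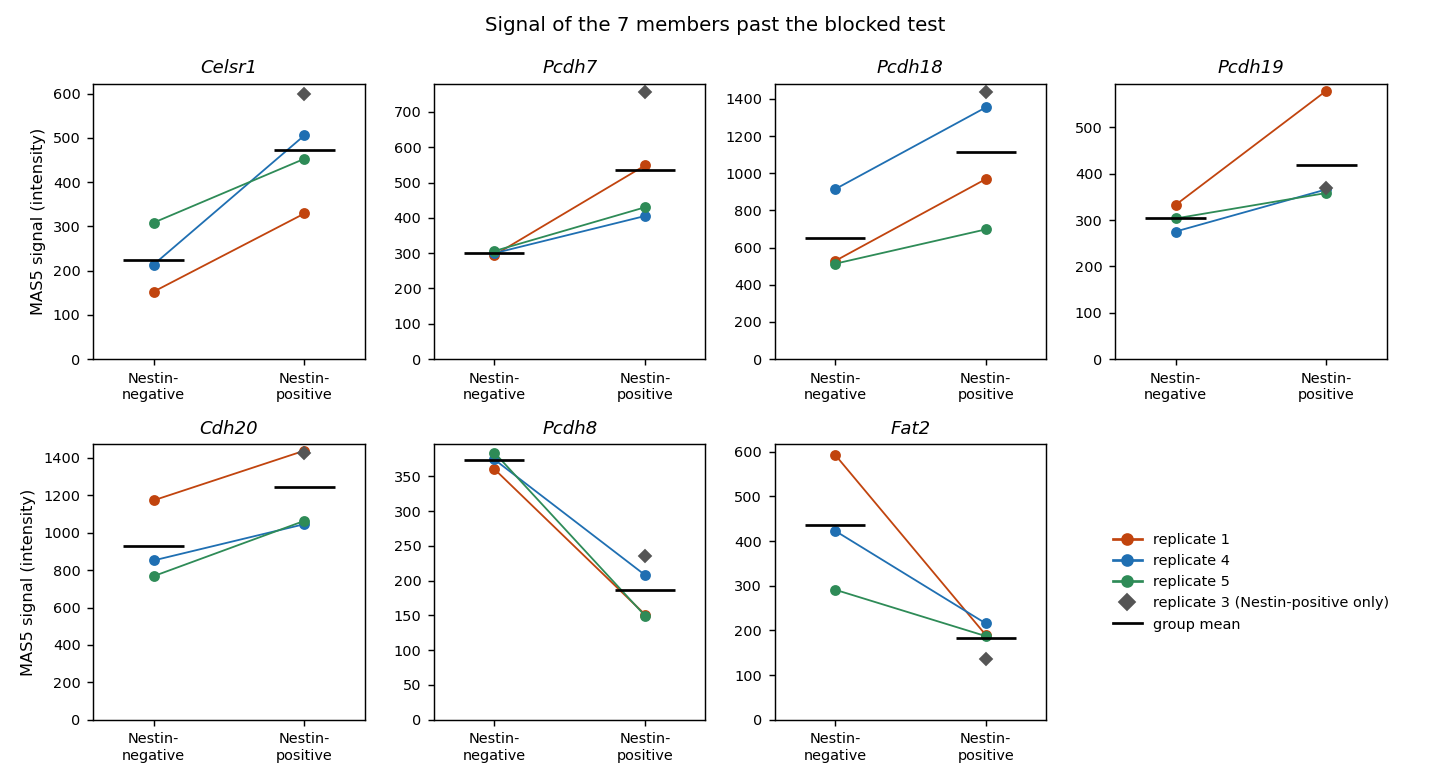
MAS5 signal (y axis, linear from 0) of the 7 members past the blocked test on Nestin-negative and Nestin-positive arrays. Lines join arrays of the same replicate number, the grey diamond is Nestin-positive replicate 3, black bars are group means, and the lines of the 3 pairs run upward for Celsr1, Pcdh7, Pcdh18, Pcdh19 and Cdh20 and downward for Pcdh8 and Fat2.

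Promoter windows around the RefSeq start sites give the sequence context of these genes (250 bases before to 50 after each start, GRCm38.p6). Of the 41 tested members 23 matched a promoter by symbol, and of the 7 past the blocked test 6 did, all but Celsr1. The 4 with the smallest blocked p-values among these are shown, to set the genes that fell beside those that rose, each on its gene's strand and with E-boxes in capitals. The E-box CANNTG is the site of basic helix-loop-helix factors such as Atoh1, and its form CACCTG is bound by Zeb1, a repressor of E-cadherin. Pcdh8 (chr14:79771263-79771562, minus strand) and Fat2 (chr11:55312208-55312507, minus strand) fell. Pcdh18 (chr3:49757267-49757566, minus strand) and Pcdh7 (chr5:57717831-57718130, plus strand) rose.
Pcdh8: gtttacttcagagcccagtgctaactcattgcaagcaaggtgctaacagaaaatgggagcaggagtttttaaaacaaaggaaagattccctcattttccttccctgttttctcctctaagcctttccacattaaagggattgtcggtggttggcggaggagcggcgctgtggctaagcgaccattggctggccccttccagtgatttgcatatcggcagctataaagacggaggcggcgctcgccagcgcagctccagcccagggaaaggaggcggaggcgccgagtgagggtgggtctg
Fat2: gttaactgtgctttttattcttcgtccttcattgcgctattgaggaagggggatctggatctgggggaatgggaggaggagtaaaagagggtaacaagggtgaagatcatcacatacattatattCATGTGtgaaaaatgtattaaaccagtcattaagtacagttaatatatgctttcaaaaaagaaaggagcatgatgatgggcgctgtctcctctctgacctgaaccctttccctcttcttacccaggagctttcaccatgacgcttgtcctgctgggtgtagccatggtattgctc
Pcdh18: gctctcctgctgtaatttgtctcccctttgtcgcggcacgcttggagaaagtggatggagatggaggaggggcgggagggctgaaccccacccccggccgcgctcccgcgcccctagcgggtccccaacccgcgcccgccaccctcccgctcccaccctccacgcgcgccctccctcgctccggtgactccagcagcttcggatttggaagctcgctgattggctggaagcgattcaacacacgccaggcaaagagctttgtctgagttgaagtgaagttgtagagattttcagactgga
Pcdh7: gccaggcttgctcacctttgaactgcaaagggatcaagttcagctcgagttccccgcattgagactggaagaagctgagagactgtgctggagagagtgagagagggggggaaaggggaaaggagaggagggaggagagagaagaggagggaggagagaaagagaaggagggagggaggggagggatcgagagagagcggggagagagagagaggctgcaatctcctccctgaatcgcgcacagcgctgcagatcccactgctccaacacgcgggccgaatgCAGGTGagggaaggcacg
On both strands, CANNTG occurred in 4 of the 6 promoters (66.7%) and in 72.3% of all 32851 promoters of this length. CACCTG, which is also a CANNTG match, occurred in 1 of the 6, that of Pcdh7, and in 20.2% of all. The Gli motif GACCACCCA occurred in 0 of the 6 and in 0.253% of all. These are matches of letters only, and the window is short.

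Of the type I classical cadherins, 3 of 5 were tested, N-cadherin (Cdh2), Cdh4 and Cdh15, and 0 passed limma with or without the block (0 had an unadjusted p under 0.05 without it). Cdh2 had a signal of 5374, 8073, 5284 and 6946 on Nestin-positive replicates 1, 3, 4 and 5 and of 5481, 4743 and 6245 on Nestin-negative replicates 1, 4 and 5. The fractions overlapped and replicate 3 was again the highest. The log2 change was 0.21 ± 0.17, with a 95% interval of -0.16 to 0.59 (limma, adjusted p = 0.631). With the block it was 0.09, with an interval of -0.11 to 0.30. A second Cdh2 probe set had a log2 change of 0.12.

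Cdh4, which encodes R-cadherin, was lower in the Nestin-positive array of every pair by nearly the same amount, -0.34, -0.31 and -0.36 for replicates 1, 4 and 5. Its blocked adjusted p of 0.0545 lay just past the threshold (limma). Over all arrays the signals overlapped, 812 to 1218 against 1007 to 1567. The other kept Cdh4 probe set was also lower in each pair, but less evenly. It had 792 against 998, 629 against 795 and 1193 against 1243 for replicates 1, 4 and 5. With the block its log2 change was -0.24. With each probe set tested alone, its blocked adjusted p was 0.321, against 0.108 for the brighter one (limma). Cdh15, known as M-cadherin of muscle and present on cerebellar granule cells, had a signal of 193 on Nestin-positive replicate 3 and of 511 to 623 on the other Nestin-positive arrays, against 382 to 462 on Nestin-negative ones. Its log2 change was 0.00 ± 0.35 over all arrays and 0.39 ± 0.14 with the block, where the adjusted p was 0.0817 (limma).

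Of 6 type II cadherins tested, Cdh20 passed with the block. Their log2 changes were positive for 4 of the 6, where 5041 of all 11089 genes were positive, and the median was 0.33 (0.18 with the block), against -0.03 over all genes. Cdh20 had a signal of 1439, 1424, 1046 and 1064 on Nestin-positive replicates 1, 3, 4 and 5 and of 1173, 852 and 768 on Nestin-negative replicates 1, 4 and 5. The fractions overlapped at Nestin-negative replicate 1, and each pair was higher on the Nestin-positive side. The blocked log2 change was 0.35 ± 0.11 (limma, adjusted p = 0.0483; 0.339 without the block), and the call was lost without the pair of replicate 1 (0.13) or of replicate 5 (0.309).

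Cdh8 had a signal of 293 to 494 on Nestin-positive and 223 to 295 on Nestin-negative arrays, and its 3 kept probe sets had log2 changes of 0.50, 0.68 and 0.41. Its adjusted p was 0.29 without and 0.0697 with the block (limma). Cdh7 was highest on Nestin-positive replicate 3, at 426 against 119 to 219 on the other arrays, and did not pass (blocked adjusted p = 0.763). Cdh10 was 772 on that array and 416 to 592 on the others. In the other kept Cdh10 probe set that array had 372, and Nestin-negative replicate 1 was the highest at 503. Cdh22 differed by 0.24 ± 0.23.

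Cdh11, a type II cadherin of mesenchymal cells and glia, varied widely between replicates, mainly through replicate 1 and Nestin-positive replicate 3. Its signal was 141, 678, 243 and 221 on Nestin-positive replicates 1, 3, 4 and 5 and 102, 473 and 547 on Nestin-negative replicates 1, 4 and 5. Both replicate 1 arrays were low, and in the pairs of replicates 4 and 5 the Nestin-positive array was lower. The log2 change was -0.16 ± 0.63 over all arrays and -0.60 ± 0.24 with the block (limma, adjusted p = 0.123). Without the pair of replicate 1 it was -1.13, which passed (limma, adjusted p = 1.27e-07). The errors of that fit rest almost wholly on spread pooled over genes, so this p-value says little about the spread of Cdh11 itself. The summed signal of the meningeal fibroblast markers on Nestin-negative replicates 1, 4 and 5 was 5503, 12401 and 12246. That of the astrocyte and Bergmann glia markers was 9042, 23914 and 23630 on these arrays. In the Nestin-positive fraction, replicates 1, 3, 4 and 5 had meningeal sums of 4330, 4087, 6166 and 5726 and glial sums of 11543, 32354, 17239 and 17896. The array with the highest Cdh11, Nestin-positive replicate 3, had the highest glial and the lowest meningeal sum. Of that meningeal sum Pdgfra, also in the oligodendrocyte lineage list, gave 2752. Among the tested meningeal markers only Pdgfra and Col3a1 were lowest on this array. Col1a2, Dcn, Lum and Igfbp2 were lowest on Nestin-positive replicate 1. The part of these cells in the Cdh11, Fat4, Cdh7 and Cdh10 values was not tested. Cdh13, the GPI-anchored T-cadherin and the only other Cdh gene tested, differed by -0.17 ± 0.23.

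**Figure D4:**
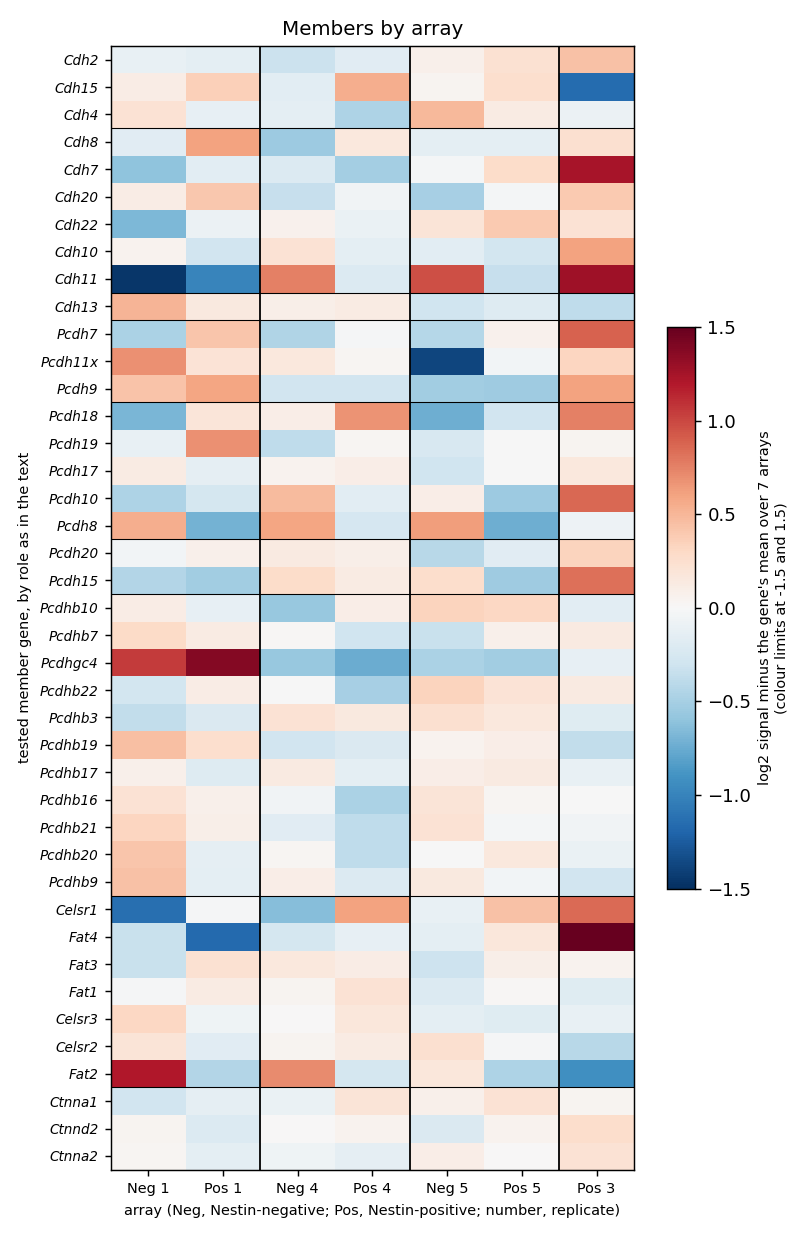
Log2 signal of each tested member (y axis, by group) on each array (x axis, arrays of the same replicate number side by side), relative to the gene's mean over the 7 arrays. Both replicate 1 arrays are low for Cdh11 and high for Pcdhgc4, the column of Nestin-positive replicate 3 holds high values of Fat4, Cdh7 and Cdh11, and values beyond 1.5 share the end colours.

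Of the clustered protocadherins, 0 of 11 tested passed limma with or without the block (1 had an unadjusted p under 0.05 without it). All 10 tested Pcdhb genes and Pcdhgc4 had log2 changes between -0.40 and 0.07, 9 of the 11 negative, where 6048 of all 11089 genes were. Their median was -0.13 (-0.07 with the block), against -0.03 over all genes. Pcdhb9 had a signal of 369, 335, 354 and 396 on Nestin-positive replicates 1, 3, 4 and 5 and of 554, 436 and 451 on Nestin-negative replicates 1, 4 and 5. The fractions did not overlap, and its log2 change was -0.40 ± 0.15 (limma, adjusted p = 0.245, and 0.116 with the block). Pcdhb genes resemble each other in sequence, so a probe set may bind transcripts of more than the gene it names.

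The catenins that the rule includes did not pass in either fit. Ctnna1, the alpha-catenin of most tissues, averaged 5192 ± 569 (SD, n = 4) against 4578 ± 590 (SD, n = 3), with a log2 change of 0.18 ± 0.13 (95% interval -0.11 to 0.47). Ctnna2, the neuronal alpha-catenin whose loss disturbs the cerebellum, differed by -0.04 ± 0.13 (interval -0.32 to 0.25). Ctnnd2, the neuronal delta-catenin, differed by 0.10 ± 0.13, and its other probe set by -0.31, with the opposite sign.

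Partner genes of the cadherins were described from 5 lists written for this comparison, of which 54 of 68 genes were tested. Limma called 1 of the 54 lower and 0 higher (10 had an unadjusted p under 0.05), where 0.577% of all genes were called lower and 0.171% higher and 14.4% had such a p. With the block 2 rose and 3 fell, where 3.6% and 6.52% of all genes did. The 54 had 27 positive and 27 negative log2 changes. Prickle2, a cytoplasmic planar polarity protein, fell in both fits. Its signal was 605, 636, 630 and 625 on Nestin-positive replicates 1, 3, 4 and 5 and 1250, 1253 and 992 on Nestin-negative replicates 1, 4 and 5, without overlap. The log2 change was -0.89 ± 0.13 (SE; limma, adjusted p = 0.0299), and adjusted p-values were 0.0335 to 0.148 with each array left out. It lost its call without Nestin-positive replicate 1 (0.0642) or 5 (0.072) and without Nestin-negative replicate 1 (0.0713), 4 (0.148) or 5 (0.0568).

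Other planar polarity partners did not pass in either fit, among them Vangl2 (-0.19 ± 0.16), Fzd3 (-0.06 ± 0.11) and the Fat4 ligand Dchs1 (0.06 ± 0.17). Of the 17 tested junction partners, Jup, the plakoglobin of junctions and desmosomes, fell with the block (-0.84 ± 0.23, adjusted p = 0.0206), but 2 of its Nestin-positive values were under the array median and the call was lost without the pair of replicate 1 (0.165). Beta-catenin (Ctnnb1) differed by 0.00 ± 0.10 and p120-catenin (Ctnnd1) by 0.06 ± 0.16. The calsyntenin gene Clstn2, a cadherin-repeat protein of synapses, fell with the block (-0.78 ± 0.20, adjusted p = 0.0122; 0.11 without the pair of replicate 1). Clstn1 had a log2 change of -0.39 ± 0.13 and a blocked adjusted p of 0.0512.

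Regulators of cadherin genes gave 2 rises with the block. Zeb1 had a signal of 6400, 6480, 6344 and 6431 on Nestin-positive replicates 1, 3, 4 and 5 and of 4172, 4983 and 5386 on Nestin-negative replicates 1, 4 and 5, without overlap. It rose by 0.41 ± 0.10 with the block (limma, adjusted p = 0.0128; 0.12 without it), a call lost without the pair of replicate 1 (0.134). Tcf3, which encodes the E proteins that pair with tissue-specific helix-loop-helix factors, rose by 0.35 ± 0.10 with the block (adjusted p = 0.0357), but its fractions overlapped and the call was lost without the pair of replicate 5 (0.356). Smchd1 and Ctcf, chromatin factors that act at the protocadherin cluster, had log2 changes of 0.29 ± 0.13 and 0.20 ± 0.10 and did not pass. Of the 12 tested genes of cadherin cleavage and turnover, 0 passed either fit, and 0 had an unadjusted p under 0.05 without the block, with Adam10, the sheddase of N-cadherin, at -0.05 ± 0.14.

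Of 17 tested genes of differentiating granule neurons, 4 fell without the block, where 0.577% of all genes did, and 11 with it, where 6.52% did. Their median log2 change was -0.50, and among those that did not pass Nfia had 0.0016, Nfib -0.04, Map2 -0.07 and Rbfox3 -0.08. The summed signal of the 19 on the array was 85678 to 98096 in Nestin-positive and 111852 to 122093 in Nestin-negative cells. Of these 19, Gabra6 lay below the array median on all arrays. Of the 12 tested granule neuron precursor markers, 3 rose with the block and 0 fell, where 3.6% and 6.52% of all genes did. The 3 were Atoh1, Ccnd1 and Barhl1 (limma, adjusted p = 0.0358, 0.0279 and 0.0137). Without the block 0 of the 12 were called, and their median log2 change was -0.02 (0.10 with the block). Of 8 GABAergic interneuron lineage markers on the array 5 were tested, and the summed signal of the 8 was 3412 to 4192 in Nestin-positive and 4791 to 5881 in Nestin-negative cells. Among them Gad1, the enzyme that makes GABA, had a signal of 0.952 to 67.4 against 269 to 434 and fell with the block (limma, adjusted p = 8.04e-05), as did Tfap2b (0.000248), while Pvalb rose (0.0393). The part of any of these cells, or of the microglia, pericytes and meningeal fibroblasts whose markers also had lower values, in the Fat2 and Pcdh8 values was not tested. For microglia and macrophages all 9 tested markers had log2 changes below 0 (median -2.87), as did all 8 tested pericyte (median -2.05) and all 6 tested meningeal markers (median -1.54), with Itgam, Anpep and Myh11 below the median on all arrays.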

How the data were processed

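RNA of sorted cells was extracted with Trizol, labelled with biotin and hybridised to 1-colour arrays, per the labels' protocols. The deposited values are signal intensities from MAS5, which the submitters' processing notes name, and are linear. Leaving out 2% at each end, every array averaged 500.0. The software version and detection calls were not used here. Of 45101 probe sets, 64 controls were left out. Names came from the platform annotation, updated by Entrez ID through RefSeq (GRCm38.p6) for genes other than the members, and 34741 of 34945 single-gene probe sets matched. The deposited intensity was set on a log2 scale with nothing added.

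Groups and replicate numbers come from the sample titles. Fractions were tested in R 4.3.3 with limma 3.58.1 (eBayes with trend, two-sided, Benjamini-Hochberg over all 11089 genes tested, threshold 0.05), without covariates. Deviations from the group means correlated with r = 0.71, 0.39 and 0.47 for the same-numbered samples 1, 4 and 5, across genes, which are not independent, and with -0.60 to 0.19 for other pairs, so the numbers were taken to pair the samples. A gene in the blocked fit has 2 residual degrees of freedom, which moderation raises to 20.2, so its errors rest mostly on spread pooled over genes. With a pair left out fewer remain, and the errors rest almost wholly on the pooled spread. The members and lists were chosen with earlier results of these data known. Named genes are the members called in either fit, a fixed list of members, members whose probe sets differ in sign, and called partner genes. Further members, partners and markers were named after their values were seen. The fits were tested on simulated data. For 100 genes changed by a log2 size of 1, 72% were recovered without and 63% with the block, of 11089 genes simulated. Alternatives tried were the replicate as a fixed or random block (statmod 1.5.0), quantile normalization, a pseudocount of 32, values raised to the array median, no filter or a stricter one, the mean of a gene's probe sets, each probe set tested alone, and leaving out each array or pair.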

Additional observations from a re-analysis of the deposited data

Results flagged for a closer look

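In 6 of the 41 tested members 1 Nestin-positive array lay far from the other 3, judged by the gap to the nearest array as a share of the group's range on the log2 scale, against Dixon's critical value for 4 samples. Chance gives this in about 1 of 20 groups. Cdh10 was highest on Nestin-positive replicate 3 (share 0.843) and Cdh15 was lowest there (0.831). In the other kept Cdh10 probe set that array did not stand apart, with 372 against 337 on Nestin-positive replicate 1. Pcdh19 was highest on Nestin-positive replicate 1 (0.936). Pcdhb16, Pcdhb22 and Pcdhb7 were lowest on Nestin-positive replicate 4 (0.845, 0.87 and 0.861), where their signals were 256, 168 and 311.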

How the results depend on the processing

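Without a block, 0 members were called higher under every alternative tried, and 0 or 1, always Pcdh8, lower. Pcdh8 passed with a pseudocount of 32 (adjusted p = 0.0475), values raised to the array median (0.0428), the stricter filter (0.0483), averaged probe sets (0.0467) and without Nestin-positive replicate 3 (0.049998), each giving 1 member lower. The fixed replicate block gave 5 members higher and 2 lower, and the random replicate block (consensus correlation 0.51) gave 3, Celsr1, Pcdh7 and Pcdh18, and 2, Pcdh8 and Fat2. With each array left out, members called lower were 0 to 1. With the block and each pair left out, 2 to 6 were higher and 2 to 3 lower, with 2 higher without the pair of replicate 1. The pairing thus changes the calls, and no fit of these arrays tells whether it holds. Partner genes called were 2 higher and 3 lower with either block, 0 to 1 lower with each array left out, 1 to 3 higher and 1 to 4 lower with each pair left out of the block, and 0 lower with each probe set tested alone. All genes called numbered 83, but 1122 with the fixed block, 854 with the random block, 22 with quantile normalization, 43 with the mean of probe sets, 52 without a filter and 0 with each probe set tested alone. They numbered 0 to 97 with each array left out and 728, 1453 and 909 with the pair of replicate 1, 4 or 5 left out of the block. Signs turned only for values near 0 or resting on 1 array. Ctnnd2 gave -0.11 when its probe sets were averaged, and Fat4 -0.13 with the block. With each array left out, Cdh11 ranged from -0.93 to 0.28, Cdh13 from -0.37 to 0.034, Celsr3 from -0.20 to 0.024, Ctnna2 from -0.11 to 0.0086, Fat4 from -0.13 to 0.88, Pcdh10 from -0.36 to 0.15, Pcdh17 from -0.060 to 0.15 and Tcf3 from -0.0067 to 0.35. With the block and without the pair of replicate 1, Cdh13 was 0.074, Celsr3 0.063 and Pcdh9 -0.0043. Without the pair of replicate 4 Fat4 was -0.25, and without that of replicate 5 Fat4 was -0.35, Ctnnd2 -0.10 and Pcdh17 -0.11. The cause of these differences was not tested. Signals near the array median limit Pcdh10, Pcdh15, Pcdh11x and Fat4.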

Other observations

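Some members followed the replicate number more closely than the fraction. Pcdhgc4, a gamma-cluster protocadherin needed for the survival of some interneurons, had a signal of 868 on Nestin-positive and 694 on Nestin-negative replicate 1, against 200.1 to 306 on the other 5 arrays. Its log2 change between the fractions was -0.01 ± 0.53 over all arrays and 0.03 ± 0.15 with the replicate block (limma, adjusted p = 0.938). In the probe sets that stood for them, both replicate 1 arrays were also the highest of the 7 for Cdh13 and Pcdhb19. They were the lowest for Ctnna1, Pcdhb3, Fat4 and Cdh11. In another kept Cdh13 probe set Nestin-positive replicate 1 (205) lay below replicate 5 of both fractions (216 and 235). A dim Ctnna1 probe set had both replicate 1 arrays highest (224 and 152, against 40.0 to 128). Another kept probe set of Ctnna1 and of Cdh11 had them lowest. The brighter Pcdh9 probe set had 1423 and 1266 on the replicate 1 arrays and 1429 on Nestin-positive replicate 3, against 654 to 772 on the other 4. Its other kept probe set did not show this, with 314 and 315 on the replicate 1 arrays and 250 to 525 on the others. These genes were singled out after their values were seen.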
